A study of Mus musculus with 6 samples.

Results

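Open chromatin that was gained in fibroblasts carrying the mutation of fibrodysplasia ossificans progressiva (FOP) was examined at 839 isolated sites between genes. The sites were selected on the authors' calls and on position. A region had to be in the deposited list of regions more accessible in FOP cells, to have no other region of that list within a gap of 10 kb, and to have its midpoint outside every RefSeq protein-coding gene (GRCm38.p6) but no more than 100 kb from one. The 839 regions were 28.3% of the 2965 more accessible regions (exact Clopper-Pearson 95% interval 26.7 to 30.0%) and 23.8% of all 3521 listed regions. They are called isolated gained regions here. The same rule applied to the 556 less accessible regions gave 205 isolated lost regions (36.9%, 32.8 to 41.0%).

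The FOP group was 3 libraries of Acvr1R206H/+ mouse embryonic fibroblasts (MEFs), and the wild-type group 3 libraries of Acvr1+/+ MEFs. Both came from E13.5 embryos, and ATAC-seq, which marks accessible DNA by transposase insertion, was done on 100000 cells per library. MEFs are a mixed primary culture of embryonic connective tissue cells; the sources used here do not give the tissue taken, the passage or any pooling of embryos. The deposited lists hold positions only, so depth, signal per library and the size of each change are unknown, and the fibroblast label could not be checked against expressed markers. In bulk libraries, more cells with a site open and more cutting per cell cannot be told apart.

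Acvr1 encodes ALK2, a type I receptor for bone morphogenetic proteins (BMPs) that signals through the transcription factors SMAD1, SMAD5 and SMAD8. The FOP allele makes this receptor overactive, and in patients and mice bone then forms through a cartilage stage in muscle, tendon and other soft tissue. Sites of open chromatin between genes are often enhancers, DNA elements that can act on a gene over a long distance and that need not act on the nearest one. Linking a region to its nearest gene is therefore a description of position.

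The rule put midpoints outside protein-coding genes, so overlap with the annotated starts of those genes was limited in advance. Promoter sequence at the overlaps is shown because it is the only sequence used here that lies inside the regions. The windows ran from 250 bases before to 50 after a start in RefSeq (GRCm38.p6). The 839 isolated gained regions overlapped 11 windows, of which 2 belonged to protein-coding genes and 9 to long noncoding RNAs (lncRNAs). The promoter table is not complete. Both protein-coding cases are printed first, the stretch inside the region of Il31ra, which encodes a subunit of the interleukin-31 receptor, and the window of the predicted gene Gm3646. A pair of lncRNA windows that lay wholly inside a region and held 2 motifs each follows. Sequences run 5′ to 3′ on the strand of the gene, and capitals mark a TEAD, RUNX or Forkhead motif.

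Il31ra, chr13:112580639-112580912, minus strand: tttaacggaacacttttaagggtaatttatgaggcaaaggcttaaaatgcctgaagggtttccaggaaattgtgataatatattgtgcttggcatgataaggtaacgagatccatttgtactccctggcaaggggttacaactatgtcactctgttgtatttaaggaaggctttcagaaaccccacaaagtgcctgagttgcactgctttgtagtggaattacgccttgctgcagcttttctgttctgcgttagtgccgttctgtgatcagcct
Gm3646, chr1:39805283-39805582, minus strand: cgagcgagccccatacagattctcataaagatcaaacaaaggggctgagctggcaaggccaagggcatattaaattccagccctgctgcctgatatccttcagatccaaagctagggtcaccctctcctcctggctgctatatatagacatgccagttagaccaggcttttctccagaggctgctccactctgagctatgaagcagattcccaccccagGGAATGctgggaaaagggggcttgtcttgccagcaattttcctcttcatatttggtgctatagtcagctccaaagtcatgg
Gm5833, chr1:138682026-138682325, minus strand: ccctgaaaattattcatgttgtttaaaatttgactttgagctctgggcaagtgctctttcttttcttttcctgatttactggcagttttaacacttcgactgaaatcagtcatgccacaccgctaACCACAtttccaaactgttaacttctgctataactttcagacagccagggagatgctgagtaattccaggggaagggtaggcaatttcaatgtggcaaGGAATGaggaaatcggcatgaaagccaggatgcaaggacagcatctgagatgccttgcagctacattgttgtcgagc
Gm39335, chr9:48452046-48452345, plus strand: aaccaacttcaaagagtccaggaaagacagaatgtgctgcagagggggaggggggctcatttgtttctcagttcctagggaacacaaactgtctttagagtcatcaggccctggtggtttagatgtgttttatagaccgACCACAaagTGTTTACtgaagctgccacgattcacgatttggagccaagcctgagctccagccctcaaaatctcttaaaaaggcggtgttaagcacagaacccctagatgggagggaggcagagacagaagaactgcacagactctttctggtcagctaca

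The motifs were searched on both strands. The TEAD motif GGAATG stood in 3 of the 11 overlapped stretches and in 14.7% of all 32851 promoter windows of 300 bases. The RUNX motif TGTGGT stood in 3 stretches and in 16.8% of windows, and the Forkhead motif TGTTTAC in 3.65% of windows. The AP-1 motif TGANTCA stood in 0 of the 11 stretches, against 7.81% of windows. The E-box CAGCTG, in 16.3% of windows, and the SMAD pair GTCTAGAC, in 0.213%, had no match in the 11 stretches. The same held for the BMP-SMAD box GGCGCC, in 11.9% of windows, the TWIST E-box CATATG, in 3.91%, the HOX motif TAATTA, in 5.29%, the GATA motif AGATAAG, in 3.04%, and the CREB motif TGACGTCA, in 1.79%. The shorter SMAD box GTCTG stood in 6 of the 11 stretches, Gm5833 and Gm39335 among them, and in 49.6% of windows; it was not capitalised. No motif overlapped another in the printed stretches. Some overlapped stretches were shorter than 300 bases, and a match is a run of letters and not evidence of a bound factor. The 11 stretches included Gm39335, 16.3 kb from Rexo2, and Gm5833, 62.4 kb from Nek7. The 205 isolated lost regions overlapped 3 windows, among them all of that of Nppb, which encodes a natriuretic peptide. All 3 of these stretches, at Nppb and the lncRNAs Gm33741 and Gm39236, held the TEAD motif. The E-box CAGCTG stood in those of Nppb and Gm39236.

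A microRNA hairpin lay within 20 kb of 11 of the 839 isolated gained regions and 7 of the 205 isolated lost regions. Of the 11, a pair lay near microRNAs known in inflammation and stress responses. The region chr19:46339308-46340021 lay 3.10 kb from the hairpin of Mir146b, whose family restrains NF-kB signalling, and 0.992 kb from Cuedc2. The region chr4:150080635-150080856 lay 12.2 kb from Mir34a, a p53 target, and 6.76 kb from Gpr157. The mature 5p forms (RefSeq, GRCm38.p6) are printed with the seed, bases 2 to 8, in capitals; their seeds differ.

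mmu-miR-146b-5p: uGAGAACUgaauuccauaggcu
mmu-miR-34a-5p: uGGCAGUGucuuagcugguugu

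Isolated gained regions lay farther from genes than isolated lost regions. The median distance of the midpoint from the nearest gene was 29.5 kb for gained regions (quartiles 10.99 and 57.3 kb, n = 839 regions) and 14.3 kb for lost regions (5.15 and 39.2 kb, n = 205 regions). Within 20 kb of a gene lay 317 gained regions, 37.8% (34.5 to 41.2%), and 113 lost regions, 55.1% (48.0 to 62.1%). The difference was -17.3 percentage points (odds ratio 0.494; two-sided Fisher exact test, Benjamini-Hochberg adjusted p = 1.69e-05 over 4 tests). Of all bases between genes within the 100 kb limit, 46.2% lay within 20 kb of a gene, so the gained share was below and the lost share above it. Within 5 kb the shares were 10.6% of gained and 24.4% of lost regions, and within 1 kb 1.67% (14 regions) and 5.85% (12 regions). Regions are not replicates of a genotype; the rule capped the distance at 100 kb in both sets, and with no distance limit the difference was -17.1 points. These tests describe the lists, and their intervals cover counting error only.

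The length of the gap between genes moved with this difference. The stretch between the flanking genes had a median of 172 kb for gained and 78.8 kb for lost regions. Stretches longer than 200 kb held 382 gained regions, 45.5% (42.1 to 49.0%), and 43 lost regions, 21.0% (15.6 to 27.2%), a difference of 24.6 percentage points (Fisher exact p = 4.79e-11, unadjusted, a comparison added after the data were seen). For each region, the share of bases within 20 kb of a gene was taken among the bases of its stretch within 100 kb of one. The mean of this share was 39.4% over gained and 57.9% over lost regions. These values are close to the 37.8% and 55.1% of the regions themselves. In stretches of at most 200 kb the shares within 20 kb were 54.9% of 457 gained and 66.0% of 162 lost regions. In longer stretches they were 17.3% of 382 gained and 14.0% of 43 lost regions, so the direction was reversed there.

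**Figure D1:**
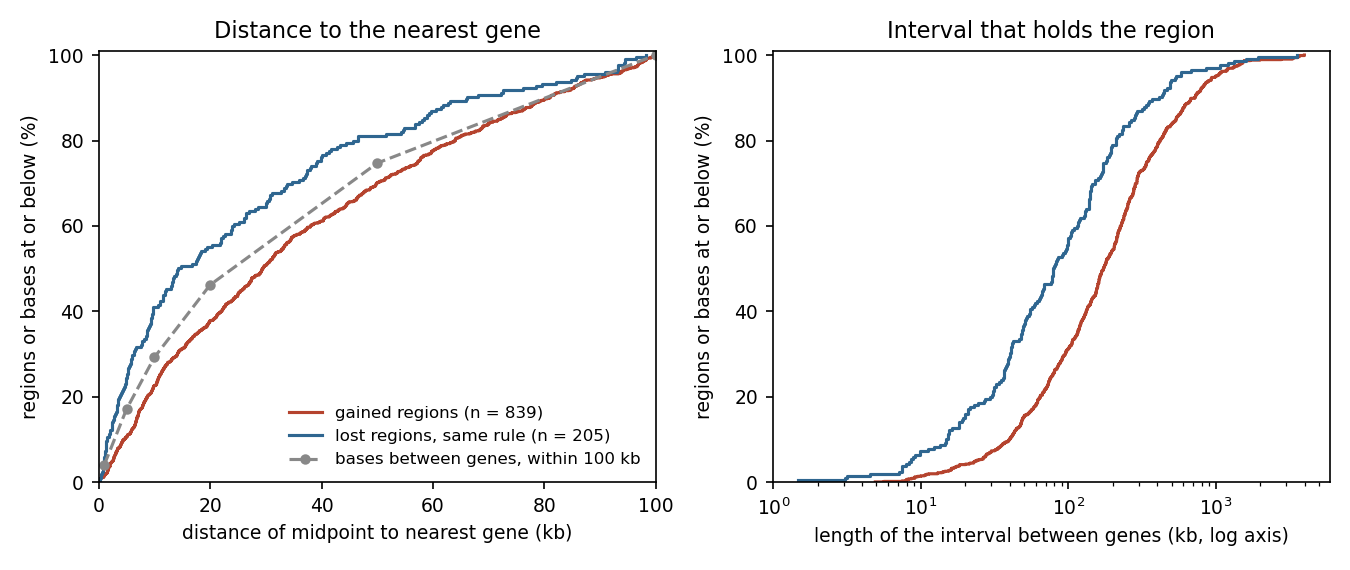
Left, share of regions whose midpoint lies at or below each distance in kb from the nearest protein-coding gene, for 839 isolated gained regions, 205 isolated lost regions and, as a dashed line, all bases between genes within 100 kb. Right, share of regions at or below each length in kb of the stretch between flanking genes (log axis); the gained curve lies to the right, with medians of 172 kb against 78.8 kb.

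The 839 regions were nearest to 753 of 21883 protein-coding genes, a background of 3.44% of genes with at least 1 region; isolated lost regions were nearest to 197 genes, or 0.900%. Of the 753 genes, 673 had 1 region, 74 had 2 and 6 had 3. Of the 751 genes of the 23 pathway and marker lists, 98 (13.0%) had an isolated gained region and 23 (3.06%) an isolated lost region. These genes also have longer empty flanks: the median length closer to the gene than to any other was 47.3 kb for list genes and 18.8 kb for all genes. Per Mb of such flanks there were 2.19 regions at list genes and 0.960 at all genes, or 1.08 on autosomes alone. The lists were chosen with earlier results of these data known, so their higher values cannot be read as enrichment. They were not tested, and their counts are read beside these values. The flanking gene on the far side also lay within 100 kb for 344 regions (41.0%).

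Of 53 genes encoding ligands, receptors and SMADs of the BMP branch and of the TGF-beta and activin branch, 8 had a region. Acvr1 itself had none within 100 kb; the closest lay 915 kb away, beside Dapl1. Bmp2, a ligand that drives bone and cartilage formation, had a region of 855 bp at 3.55 kb (chr2:133566019-133566873). Bmp5, another ligand of the family, had a region at 7.88 kb on its 5′ side, and Bmp4, also a ligand, had one at 76.5 kb on its 3′ side. Acvr1b, a type I receptor for activins, had one of the widest regions, 1352 bp at 10.4 kb on its 5′ side (chr15:101163000-101164351), in the stretch shared with Acvrl1, which encodes the BMP9 receptor ALK1. Smad2 and Smad3, the SMADs of the TGF-beta and activin branch, had regions at 34.6 and 60.4 kb, that of Smad3 facing Smad6, and Tgfbr2, the TGF-beta type II receptor, one at 34.7 kb. The group spanned ligands, a co-receptor (Rgma, 76.0 kb), receptors and SMADs. An isolated lost region lay at 1 of the 53 genes (1.89%), Rgma, and Smad3 held a listed lost region inside the gene.

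Targets and feedback genes of BMP signalling had a region at 8 of 41 genes. The widest of all 839 regions, 1536 bp, lay 8.76 kb from Id3 on its 5′ side (chr4:136134299-136135834). Id3 is a direct BMP-SMAD target that encodes an inhibitor of basic helix-loop-helix factors. An isolated lost region nearest to Rpl11 lay in the same stretch, 53.8 kb from Id3 and 44.0 kb from the gained region. Hand2, a factor of limb and heart development, had a region of 1329 bp at 32.0 kb, again among the 5 widest. Smad6, an inhibitory SMAD induced by BMPs, had a region at 36.3 kb, in its flank away from Smad3, and Atoh8 one at 24.9 kb. Msx2, a homeobox gene of bone and skull formation, had 2 regions, at 58.2 and 71.6 kb on its 5′ side. The feedback antagonist Bambi had a region at 84.7 kb and the secreted modulator Bmper one at 63.9 kb. Isolated lost regions lay at 3 of the 41 genes as well (7.32%, against 0.900% of all genes), among them Msx1 at 5.81 kb and Id2 at 59.6 kb. For this list 2.51 regions were found per Mb of flanks, and for the preceding list, which covers both branches, 2.54. Both values were above the 0.960 of all genes but near the 2.19 of all list genes. The pathway lists ran from 0.578 per Mb, for AP-1 and immediate early genes, to 4.09, for inflammatory and chemokine genes.

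Osteoblast lineage genes had a region at 8 of 30 genes, or 3.96 per Mb of flanks. Runx2, the master regulator of osteoblasts, had a region far out, at 89.2 kb on its 3′ side, whereas Runx1, a related factor of blood and skeletal progenitors, had one at 9.18 kb. Genes of the bone matrix were Postn, which encodes periostin, with a region of 1027 bp at 22.5 kb, Ibsp, bone sialoprotein, at 34.5 kb, and Spp1, osteopontin, at 43.8 kb. Ibsp and Spp1 belong to the cluster of bone and tooth matrix genes on chromosome 5, and the genes on the far side of their regions, Dmp1 and Mepe, belong to it too. Esr1, the oestrogen receptor alpha, had a region on each side, at 3.42 and 23.3 kb. An isolated lost region lay at 1 of the 30 genes (3.33%), Alpl, which encodes alkaline phosphatase.

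Cartilage, tendon and joint genes had a region at 6 of 31 genes (19.4%), or 3.24 per Mb of flanks, and 4 of the 8 regions were within 20 kb. Osr1, a factor of connective tissue and joint progenitors, had a region on each side at nearly equal distances, 25.8 and 26.1 kb. Hapln1, which encodes the link protein that ties aggrecan to hyaluronan, had 2 on its 5′ side, at 19.1 and 72.5 kb. Erg, an ETS factor of joint cartilage that is also an endothelial marker, had a region of 1069 bp at 10.9 kb. Cytl1, a chondrocyte cytokine, had one of 1373 bp at 14.2 kb, on the far side of which lay the BMP target Msx1; the lost region of Msx1 was 75.3 kb from it. Kera, which encodes the matrix proteoglycan keratocan, had one at 15.7 kb, and the tendon factor Mkx had one at 53.6 kb.

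Structural matrix genes had a region at 9 of 50 genes. Mfap5, a microfibril component, had the closest, at 8.14 kb. Dcn (decorin), Fbn2 (fibrillin-2), Thbs1 (thrombospondin-1), Fn1 (fibronectin), Eln (elastin) and Col5a1 had a region between 23.8 and 29.3 kb, and that at Col5a1 was among the narrowest of all, at 200 bp. Col5a1 also held 1 listed lost region inside the gene. Col12a1, a collagen of tendon and bone surfaces, had 2 isolated gained regions. Of 54 matrix remodelling genes 5 had a region (9.26%, against 13.0% of all list genes), or 2.19 per Mb of flanks. All 5 encode ADAMTS proteases: Adamts17 at 15.7 kb, Adamts20 at 21.1 kb, Adamts6 at 46.5 kb, Adamts9 with 2 and Adamts3 at 52.5 kb. ADAMTS genes were not compared with the rest of the list.

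Adhesion and contractility genes had a region at 7 of 60 genes (11.7%), or 2.92 per Mb of flanks. Tns3, a tensin of focal adhesions, had 2 regions, at 11.6 and 39.3 kb, and the gene itself held 1 listed gained and 3 listed lost regions. The integrin genes Itgb8 and Itgb6, whose products can activate latent TGF-beta, had a region at 13.0 and 14.8 kb. Myh9, the heavy chain of non-muscle myosin, had one at 17.7 kb and held 1 listed lost region inside the gene. Among 28 YAP/TAZ-TEAD genes 1 had a region, Vgll3, a TEAD cofactor, at 1.80 kb. That share of 3.57% was near the background of 3.44%. Among 26 AP-1 and immediate early genes 1 did (3.85%), Klf4 at 52.7 kb. Isolated lost regions lay at 2 of the 26 (7.69%, against 0.900% of all genes), Ier3 and Btg2.

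WNT genes had a region at 9 of 65 genes (13.8%, or 2.25 per Mb of flanks), spread over ligands, receptors, antagonists and targets. The ligand gene Wnt4 had one of 950 bp at 26.7 kb, the receptor gene Fzd6 one at 17.4 kb, the nuclear factor Lef1 one at 69.8 kb and the feedback target Axin2 one at 11.1 kb. Sfrp1, a secreted antagonist, had one of 1066 bp at 32.7 kb, and the CCN matricellular genes Ccn5 and Ccn4 had theirs at 7.59 and 19.4 kb. Isolated lost regions lay at 2 of the 65 genes (3.08%, against 0.900% of all genes), Rspo2 at 8.07 kb and Dkk2 at 63.0 kb. Hedgehog, FGF and Notch genes had 5 of 45 (11.1%, or 1.42 per Mb of flanks), among them Gli3 at 21.6 kb and Ptch1, the hedgehog receptor, at 87.2 kb. An isolated lost region lay at 1 of the 45 (2.22%), Spry2, at 26.0 kb. Limb and mesenchyme patterning factors had 8 of 57 (14.0%, or 1.85 per Mb of flanks), and 0 of the 57 had an isolated lost region. Twist2 had regions at 10.4 and 85.9 kb and the hindlimb regulator Tbx4 at 12.2 kb, facing Tbx2, and 68.3 kb. Pitx1, which acts upstream of Tbx4 in the hindlimb, had one at 23.0 kb, and Tbx18 one at 15.9 kb.

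Inflammatory and chemokine genes had a region at 9 of 47 genes, with 11 regions and 4.09 per Mb of flanks. Tnfaip3, an inhibitor of NF-kB, had a region at 0.981 kb on its 3′ side (chr10:18999524-19000335), and the chemokine gene Ccl7 one at 1.76 kb, in the stretch shared with Ccl2. Cxcl12, which encodes a chemokine that guides progenitor cells, had a region on each side, at 8.06 and 91.0 kb, and Ackr3, its scavenging receptor, one at 16.0 kb. Tlr2, a receptor for bacterial lipoproteins, had one at 19.7 kb, facing Sfrp2, and Il6st, the shared signal subunit gp130 of the interleukin-6 family, one at 20.8 kb. Cxcl1, Cxcl5 and Cxcl14 had theirs between 22.2 and 54.6 kb. Isolated lost regions lay at 1 of the 47 genes (2.13%, against 0.900% of all genes), Ptgs2, at 0.385 and 56.8 kb. Axon guidance genes had 11 of 50 (22.0%), or 2.13 per Mb of flanks, near the 2.19 of all list genes. Their median flank was 105 kb, and 1 region, at Robo2, was within 20 kb.

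Of the marker lists, endothelial genes had a region at 2 of 15 (13.3%; Erg and Emcn) and adipogenic genes at 2 of 14 (14.3%), Pparg at 4.08 kb and Prdm16 at 11.9 kb. These shares were near the 13.0% of all list genes and above the 3.44% of all genes. There were 0 of 16 skeletal muscle, 0 of 16 blood and macrophage, 0 of 17 neural and glial, 0 of 14 epithelial, 0 of 12 smooth muscle, 0 of 10 mesothelial and 0 of 15 fibroblast marker genes. With lists this short and a background of 3.44%, a count of 0 does not set a single list apart. Against the 13.0% of all list genes these lists lay lower, and they were not pooled or tested. Isolated lost regions, with a background of 0.900%, lay at 3 of 10 mesothelial (Krt19, Msln and Upk3b), 2 of 16 blood and macrophage, 1 of 15 endothelial, 1 of 17 neural and glial and 1 of 14 epithelial markers. The epithelial marker was Krt19 again, so the same region was counted in both lists. Whether the cell makeup of the cultures differed between genotypes was not tested.

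**Figure D2:**
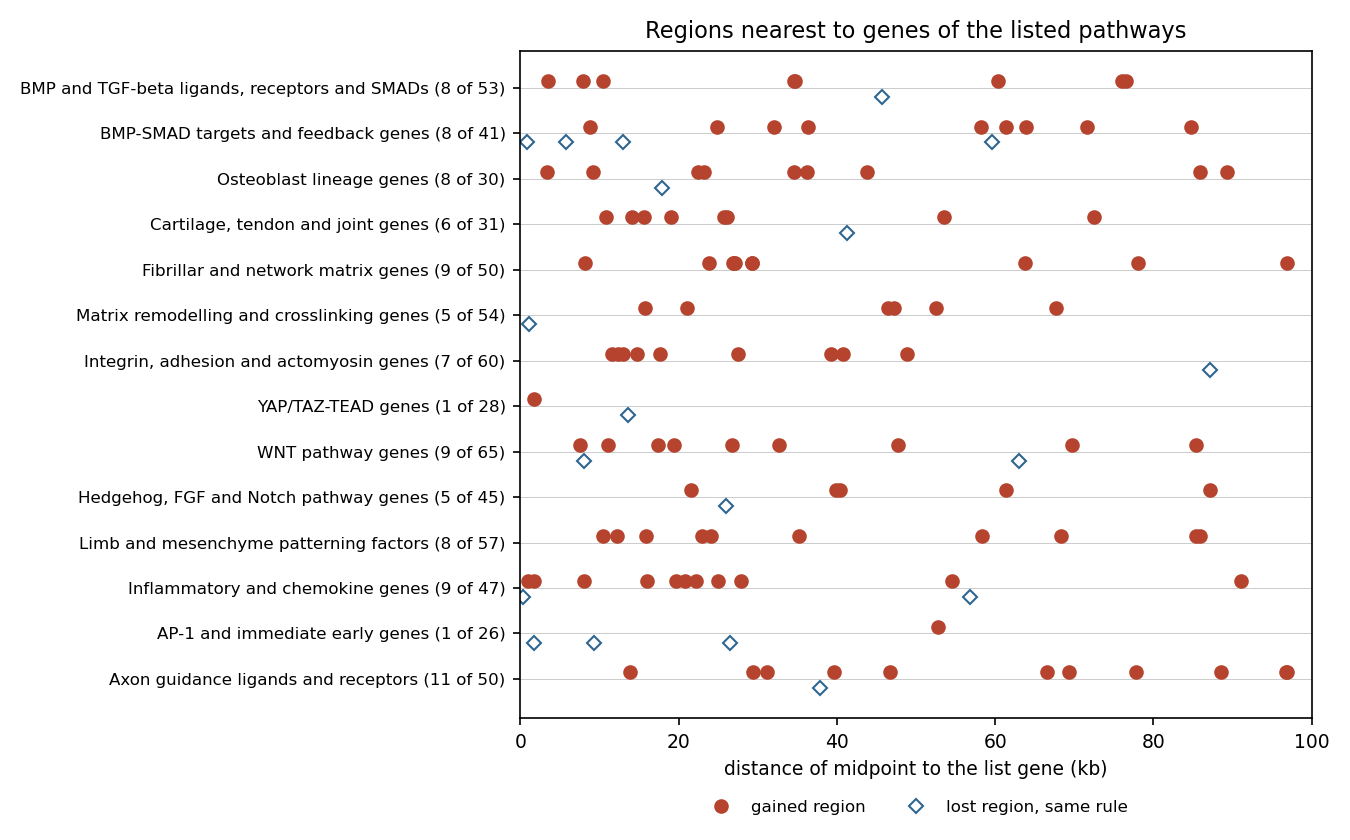
Distance in kb of each region's midpoint from the list gene nearest to it, for the 14 pathway lists; filled circles are isolated gained regions, hollow diamonds isolated lost regions. The bracketed numbers give the genes of the list with a gained region; gained regions are spread over the whole range in most lists, and YAP/TAZ-TEAD and AP-1 genes have 1 each.

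Genes with several isolated gained regions more often had them on 1 side than on both. Of the 74 genes with 2 regions, 19 had them on both sides, and of the 6 genes with 3 regions 2 did. How much of each gene's flank lay on either side was not weighed. At Itga4, Abi3bp and Hs2st1, for example, nearly all of the flank lay on the side of the regions. Nfib and Pcdh7 had long flanks on both sides and still had their regions on 1 side. The counts therefore describe position and do not show that regions favoured 1 side. Gucy1a1, which encodes a subunit of the nitric oxide receptor, had 3 on its 5′ side at 38.1, 48.8 and 78.4 kb. Hs6st1, a heparan sulfate 6-O-sulfotransferase gene, had 3 on its 5′ side at 59.2, 81.7 and 99.7 kb. Chmp2b, an endosomal sorting gene, had 3 at 2.06, 59.7 and 99.8 kb, all in the stretch shared with Vgll3, whose own region lay on its far side. Nipal2 had 3 on 1 side, while Ercc6l2 and Lyzl1 had them on both; the region of Ercc6l2 at 31.4 kb faced Ptch1. These counts depend on the limits of the rule: the outermost regions of Chmp2b and Hs6st1 were among the last inside the 100 kb limit, and regions at Tmem26 (100.2 kb), Setbp1 (100.4 kb) and Bmp4 (100.5 kb) fell just outside. At the 10 kb gap, a pair at Gucy1a1 (10.0 kb apart) was just inside, and regions at Slc1a3 (9.35 kb) and Fam210b (9.32 kb) just outside.

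**Figure D3:**
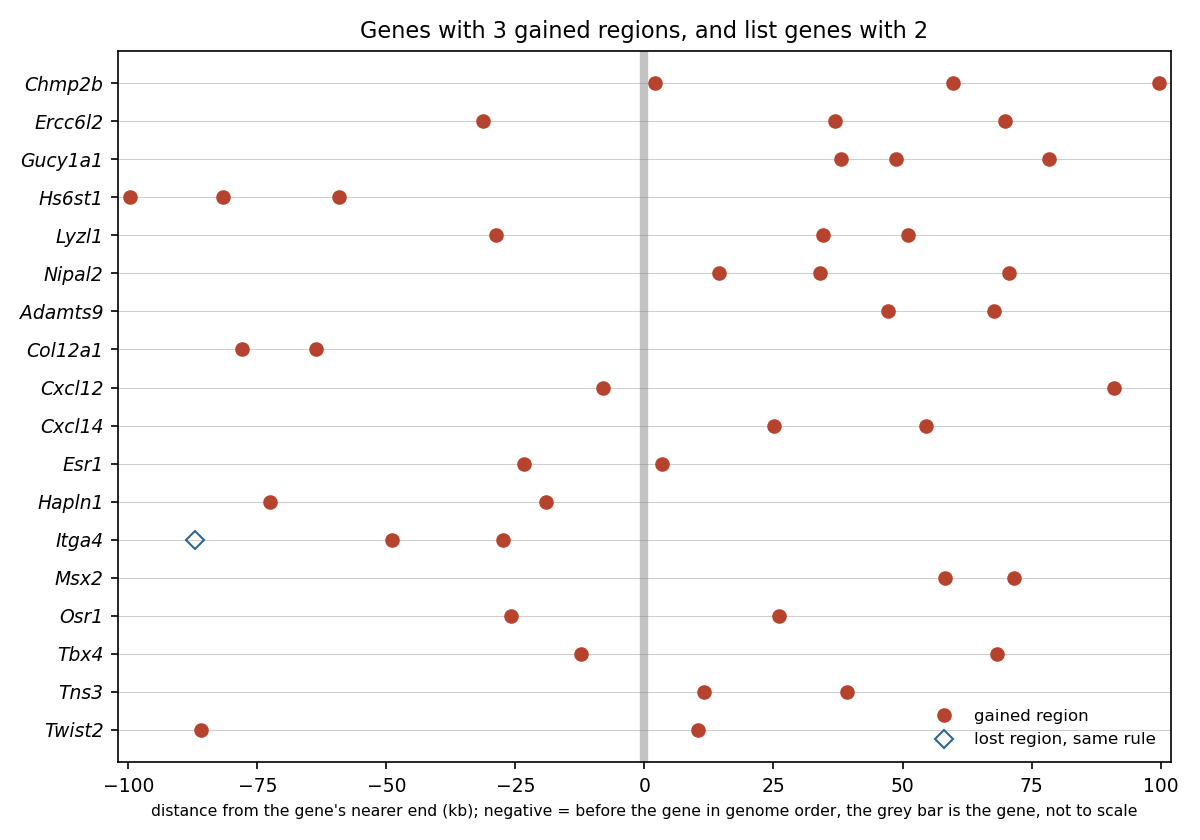
Position of each region relative to its nearest gene, in kb from the nearer gene end, for the 6 genes with 3 isolated gained regions and the list genes with 2; negative values lie before the gene in genome order and the grey bar stands for the gene, not to scale. Filled circles are isolated gained regions and the hollow diamond is the isolated lost region of Itga4, which lies 87.2 kb from the gene, beyond both of its gained regions.

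Few isolated gained regions had a lost region nearby. A listed lost region was within 100 kb of 53 isolated gained regions (6.32%), and a listed gained region within 100 kb of 52 isolated lost regions (25.4%). The difference was -19.0 percentage points (two-sided Fisher exact test, adjusted p = 8.74e-13). Gained regions were searched against 556 lost regions, and lost regions against 2965 gained ones. The test cannot separate position from these list sizes, so nothing is concluded from it. At 23 genes an isolated gained and an isolated lost region were both nearest, 3.05% of the genes of the gained set and 11.7% of those of the lost set. At Fmo6 they were 4.22 kb apart, at Rexo2 7.25 kb, at Idh2, the mitochondrial isocitrate dehydrogenase, 7.76 kb, and at Bag3, a co-chaperone gene, 10.1 kb. Among signalling genes, Rgma had its gained region at 76.0 kb and its lost region at 45.7 kb on the same side, 29.9 kb apart, and Itga4 had 2 gained and 1 lost on the same side. At Spry2, Mkx and Dkk2 the gained and lost regions lay on opposite sides. Another gained region, inside the nearest gene, accompanied 141 isolated gained regions (16.8%).

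Density differed between chromosomes. Autosomes held 1.08 isolated gained regions per Mb between genes within 100 kb of a gene, and 0.268 isolated lost regions. The highest gained density was on chromosome 16 (1.64 per Mb, 45 regions), followed by 18 (1.44) and 3 (1.32), and the lowest autosomal density on chromosome 7 (0.472, 28 regions). Chromosome X had 9 regions, 0.134 per Mb, and chromosome Y had 0. Lost regions on chromosome 16 numbered 5, at 0.183 per Mb, and on chromosome 7 they numbered 21, at 0.354 per Mb. The differences between chromosomes were not tested.

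**Figure D4:**
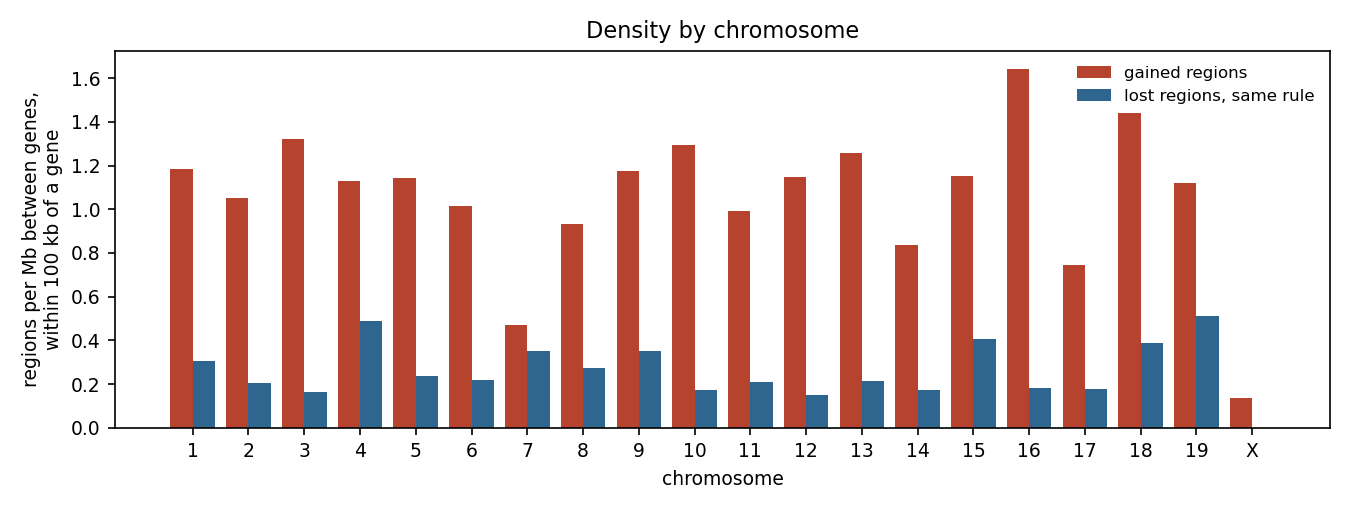
Isolated gained regions (left bar) and isolated lost regions (right bar) per Mb of sequence between genes and within 100 kb of a gene, by chromosome; chromosome Y, with none of either, is not drawn. Chromosome 16 has the tallest gained bar, at 1.64, and chromosome X the shortest, at 0.134.

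Isolated gained regions were 629 ± 231 bp wide (SD over 839 regions, 200 to 1536 bp) and isolated lost regions 692 ± 286 bp (SD over 205 regions). Wider than 600 bp were 49.5% of gained (46.0 to 52.9%) and 55.1% of lost regions, a difference of -5.66 percentage points that did not pass the two-sided Fisher exact test (adjusted p = 0.161). Gained regions between genes but more than 100 kb away, 593 in number, were wider than 600 bp in 45.2% of cases, a difference of 4.27 percentage points (adjusted p = 0.159, Fisher exact test). After Id3, the widest isolated gained regions were those near Nxnl2 (1519 bp), Cytl1, Acvr1b and Hand2, and the narrowest, at 200 bp each, those near Krt6b, Cpn2 and Col5a1. The 10 regions closest to a gene included those at Gm30679 and Fggy, whose midpoint lay 4 bp from the gene's end, at Blcap (117 bp), Il31ra (147 bp) and Prkar2b, a protein kinase A regulatory subunit gene (148 bp).

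**Figure D5:**
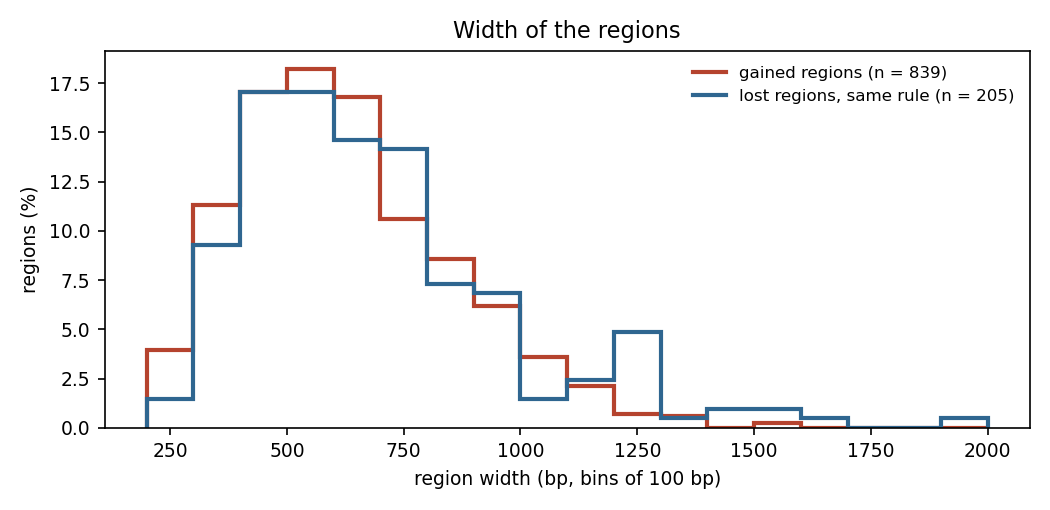
Share of regions per 100 bp bin of width, for 839 isolated gained regions and 205 isolated lost regions. Both curves are highest between 400 and 700 bp, and the lost set has a longer tail of wide regions.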

How the data were processed

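ATAC-seq libraries of 3 FOP and 3 wild-type MEF samples were amplified by 10 PCR cycles and read from both ends at 150 bp, per the labels' protocols. The deposited files are a pair of region lists with a chromosome, start and end per region; the authors gave positions in bp and no count, fold or p-value, and direction was taken from each list's name. The submitters' processing notes name DESeq2, featureCounts, MACS2, Bowtie2, SAMtools, Trimmomatic and bedtools, and the builds mm10 and GRCm38. For versions, cutoffs, transposase offset, duplicates and peak calling per library or pooled, nothing was given in the sources used here. Such choices set which regions are listed and how wide they are. Depth is unknown.

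Regions were placed by midpoint against 21883 protein-coding spans of RefSeq GRCm38.p6 with Python 3.11.15, pandas 2.3.3 and SciPy 1.17.1. Distances were checked against bedtools 2.31.1 and the tests on simulated data. Shares carry Clopper-Pearson 95% intervals and were compared by Fisher's exact test (two-sided), Benjamini-Hochberg adjusted over 4 tests at a threshold of 0.05. A gene's flank is the sequence between genes, within 100 kb, that is nearer to it than to any other gene. The members and gene lists were chosen with earlier results of these data known, so lists are counted and not tested. Named genes are those with the most regions, up to 4 per list by distance, the regions closest to genes, at the limits and at the extremes of width, genes with both directions, and Acvr1; others were chosen after their values were seen. A few genes picked by this rule are not reported here. Gene strand came from the promoter table, which covered 76.4% of gained and 70.7% of lost regions' genes, below the 80% needed, so shares by gene end were not compared. No genome sequence was used here, so motifs in the regions themselves were not searched. Alternatives were the gap, distance limit, cuts, gene set, windows and chromosomes.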

Additional observations from a re-analysis of the deposited data

How the results depend on the processing

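The lists hold no values per library, so no result could be recomputed without a library, and depth cannot be weighed. No paired analysis was possible because the deposited lists carry no value per sample. The number of isolated gained regions was 588 to 1078 under 6 of 7 alternatives and 1432 with no distance limit. The share within 20 kb of a gene stayed lower in gained than in lost regions, past the threshold of the Fisher exact test, under 12 of 13 alternatives (-18.3 to -10.9 percentage points). In stretches longer than 200 kb, an alternative added after the data were seen, the difference was reversed at 3.32 points (adjusted p = 0.673); the cause was not tested. The width difference from lost regions passed with no distance limit (-7.17 points, adjusted p = 0.0375) and that from more distant gained regions with a cut of 500 bp (5.47 points, adjusted p = 0.0431), and neither passed under the others. The share in stretches longer than 200 kb kept direction and call (10.4 to 25.7 points). So did the share near the opposite list (-44.9 to -8.74 points), where the lists searched were of unequal size in every window. With a limit of 50 kb 557 genes were linked. The planned comparison of motifs, of gene ends and of links by start site was not run.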

Other observations

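Runs of isolated gained regions, with no more than 50 kb between members, occurred at 7 loci with 3 or more members. The longest held 4 regions over 124 kb on chromosome 16, between Impg2, a retinal matrix gene, and Abi3bp, which encodes a matrix protein of connective tissue. A chemokine locus on chromosome 5 had 3 over 64.9 kb between Cxcl15 and Cxcl1, and another on chromosome 13 had 3 over 60.4 kb between Cxcl14 and Slc25a48. A run of 3 lay among Gm21190, Gm21083 and Speer4d on chromosome 5, a family of near-identical copies where read placement is uncertain. These loci were chosen after their values were seen.

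Annotated lncRNA spans held the midpoint of 136 isolated gained regions (16.2%) and 44 isolated lost regions (21.5%), and the difference was not tested. All 3 regions of Gucy1a1 lay inside the lncRNA gene Gm29921, both regions of Adamts9 inside 9530026P05Rik, and 2 regions near Mrps6 inside Gm41496. A microRNA hairpin lay within 20 kb of 11 of 839 gained and 7 of 205 lost regions, a lower share in the gained set that was not tested. The hairpins near lost regions included Mir29a, at 9.33 kb.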
